A study of Saccharomyces cerevisiae with 10 samples.

Results

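Transcript levels of 5 genes that encode the regulators of sulfur amino acid synthesis in budding yeast were followed in strains that lose function of the SCF ubiquitin ligase when warmed. The genes were MET4 (YNL103W), MET28 (YIR017C), MET31 (YPL038W), MET32 (YDR253C) and CBF1 (YJR060W), chosen by name for their role. All 5 were found among the 5449 named genes of the arrays, each through 1 probe set. These genes and the gene lists below were chosen with earlier results of these data known, so counts within them are descriptions. The strains carried the temperature-sensitive alleles cdc53-1 (strain py175), cdc34-3 (py24), cdc4-3 (py187), skp1-11 (labelled W303) and skp1-25 (py1374). Cultures grew in YPDA, a rich medium with glucose and extra adenine, at room temperature (RT, 25 °C), and 1 array was made per strain at RT and 1 after 1 h at 35 °C. Cdc53 is the cullin scaffold of the SCF, Cdc34 its ubiquitin-conjugating enzyme, Skp1 its adaptor, and Cdc4 is one of its F-box proteins, which selects cell cycle substrates. A strain with an unmutated SCF was not analysed here, so warming and loss of SCF function cannot be told apart in any change below.

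Met4 is a leucine zipper activator that does not bind DNA by itself. It is brought to promoters by Cbf1, a basic helix-loop-helix protein that also binds centromeres, and by Met31 and Met32, a pair of related C2H2 zinc finger proteins, while Met28, a second leucine zipper protein, stabilises these assemblies. The SCF that carries the F-box protein Met30 ubiquitylates Met4 and holds it inactive when sulfur amino acids are plentiful. MET28, MET32 and MET30 are also known as targets of Met4.

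Levels are on a log2 scale, with array medians from 10.96 to 11.14. Levels of different genes come from different probe sets and were not compared with each other, while changes were. The temperature shift (35 °C minus RT) was tested with limma over all genes with strain as a block, so the 5 strains are its replicates. The labels do not mention repeat cultures, so the p-values measure the spread between strains. The cdc53-1 arrays stood apart in STE2, a gene specific to the a mating type. STE2, which encodes the receptor for alpha factor, was at 7.39 and 6.41 there and between 12.15 and 13.24 in the other strains. Genes specific to the alpha mating type did not show such a spread. At RT the SD over strains was 2.55 for STE2 and from 0.25 to 0.52 for MF(ALPHA)1, MF(ALPHA)2, STE3 and SAG1. The mating type of cdc53-1 was not tested, and values without this strain are given below.

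MET32 and MET28 rose in every strain, MET4 rose by a small amount, and MET31 and CBF1 did not pass the test. MET32 rose by 1.56 ± 0.46 (SD, n = 5), a 2.94-fold increase (limma adjusted p = 0.00476). MET28 rose by 1.09 ± 0.50, or 2.13-fold (limma adjusted p = 0.0123), and MET4 by 0.37 ± 0.23, or 1.29-fold (limma adjusted p = 0.0442). The share of all genes called higher was 13.0% and the share called lower 4.61%, against 3 and 0 of the 5 regulators.

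**Figure D1:**
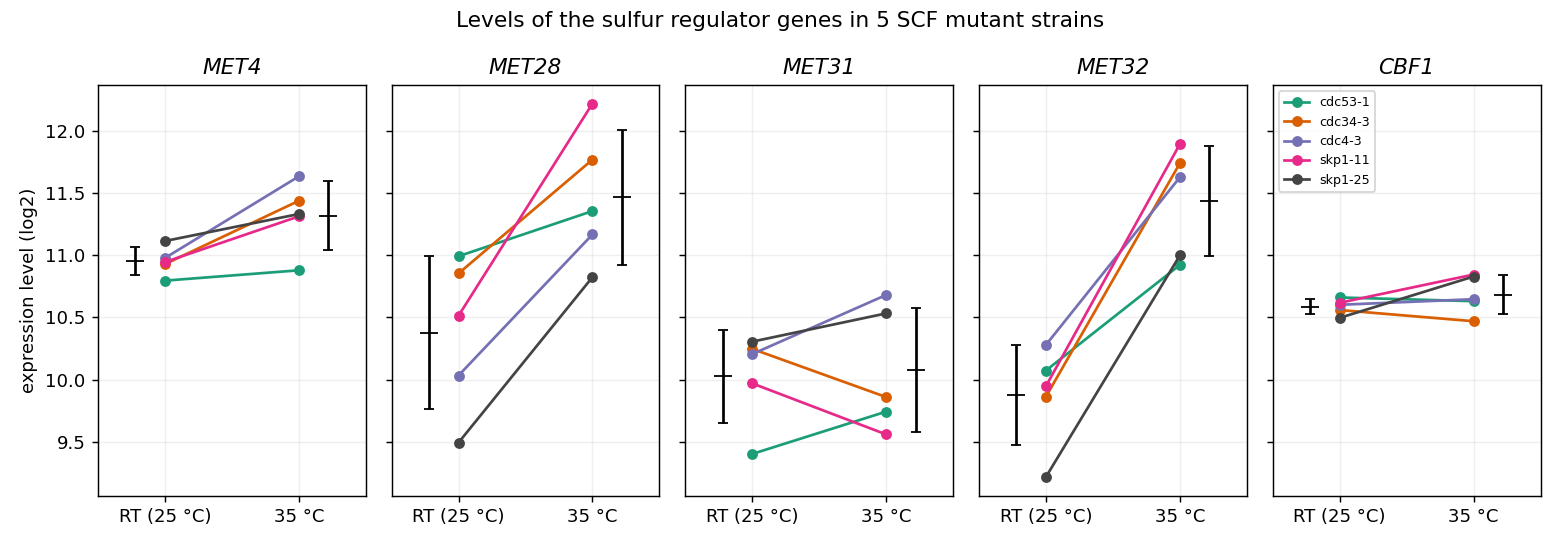
Expression level (log2, vertical axis) of each regulator gene at RT and 35 °C, with 1 line per strain and the mean ± SD of the 5 strains in black beside each temperature. The MET32 lines run from 9.22 to 10.28 at RT to 10.92 to 11.89 at 35 °C with no overlap, whereas the MET31 lines cross. Heights are not comparable between genes.

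MET32 encodes one of the paired zinc finger proteins that bring Met4 to DNA. Its level at RT was 9.95 in skp1-11, 9.22 in skp1-25, 9.86 in cdc34-3, 10.28 in cdc4-3 and 10.07 in cdc53-1. After 1 h at 35 °C it was 11.89, 11.00, 11.74, 11.63 and 10.92 in the same order. Every 35 °C array was therefore above every RT array, as was the case for 6.35% of all genes. The increase was smallest in cdc53-1 (0.85), intermediate in cdc4-3 (1.35) and close together in skp1-25 (1.78), cdc34-3 (1.87) and skp1-11 (1.94). Only 0.716% of genes had a larger change than MET32 in cdc34-3, 0.752% in skp1-11 and 0.532% in skp1-25, compared with 2.18% in cdc4-3 and 5.62% in cdc53-1. By the mean over strains, 44 of 5449 genes had a larger shift. The call held in each fit that left out 1 strain, and without cdc53-1 the rise was 1.74 (limma adjusted p = 0.00316).

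MET31, the paralog of MET32, did not follow it. Its RT level was 9.97 in skp1-11, 10.31 in skp1-25, 10.25 in cdc34-3, 10.21 in cdc4-3 and 9.40 in cdc53-1, and its 35 °C level was 9.56, 10.53, 9.86, 10.68 and 9.74. It was thus higher at 35 °C in cdc53-1 (0.34), cdc4-3 (0.48) and skp1-25 (0.23), and lower in cdc34-3 (-0.39) and skp1-11 (-0.41). The mean shift was 0.05 with a 95% interval from -0.32 to 0.42 (limma adjusted p = 0.856), and its sign was negative after median centring (-0.03), after quantile normalization (-0.01), without cdc53-1 (-0.02) and without cdc4-3 (-0.06). The MET32 change exceeded the MET31 change in 5 of 5 strains, by 2.35 in skp1-11, 1.55 in skp1-25, 2.26 in cdc34-3, 0.87 in cdc4-3 and 0.51 in cdc53-1. The mean excess was 1.51 ± 0.82 (SD, n = 5), and an exact two-sided sign-flip permutation test gave p = 0.0625, the smallest value that 5 strains allow.

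MET28 encodes the leucine zipper cofactor. At RT it stood at 10.51 in skp1-11, 9.49 in skp1-25, 10.85 in cdc34-3, 10.03 in cdc4-3 and 10.99 in cdc53-1. At 35 °C it stood at 12.22, 10.82, 11.77, 11.17 and 11.35. It rose in every strain, but the temperatures overlapped, because the skp1-25 level at 35 °C was below the RT levels of cdc53-1 and cdc34-3. The change ran from 0.36 in cdc53-1 through 0.91 in cdc34-3, 1.13 in cdc4-3 and 1.33 in skp1-25 to 1.70 in skp1-11, where 1.21% of genes had a larger one. Without cdc53-1 the mean rise was 1.27 (limma adjusted p = 0.00906). The call was lost without cdc4-3 (1.08, limma adjusted p = 0.0534) and in the fit without the strain block (limma adjusted p = 0.0788).

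MET4, the gene of the activator itself, had a narrow range at RT. Its levels there were 10.94 in skp1-11, 11.11 in skp1-25, 10.93 in cdc34-3, 10.98 in cdc4-3 and 10.80 in cdc53-1. The 35 °C levels were 11.31, 11.33, 11.44, 11.63 and 10.88 in the same strains. Each strain moved upward, by 0.08 in cdc53-1 and between 0.22 and 0.66 in the others, and 21.7% of all genes were likewise higher at 35 °C in all 5 strains. The range widened from 0.32 at RT to 0.75 at 35 °C. The MET4 call lay close to the threshold. It was lost after median centring (0.29, limma adjusted p = 0.0581), after quantile normalization (0.30, limma adjusted p = 0.0534) and without the strain block (limma adjusted p = 0.122). Leaving out cdc34-3, cdc4-3, skp1-11 or skp1-25 also ended it, with limma adjusted p = 0.108, 0.121, 0.111 and 0.0730, while without cdc53-1 the rise was 0.44 (limma adjusted p = 0.0400).

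CBF1 was the least variable of the regulators. Its RT levels were 10.62 in skp1-11, 10.50 in skp1-25, 10.56 in cdc34-3, 10.60 in cdc4-3 and 10.66 in cdc53-1, a range of 0.16. Its 35 °C levels were 10.84, 10.83, 10.47, 10.65 and 10.63, a range of 0.38. The mean difference was 0.10 ± 0.18 with a 95% interval from -0.10 to 0.29 (limma adjusted p = 0.439), and 3 strains were higher and 2 lower at 35 °C. The only changes above 0.1 were those of the skp1 strains, 0.23 in skp1-11 and 0.33 in skp1-25.

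**Figure D2:**
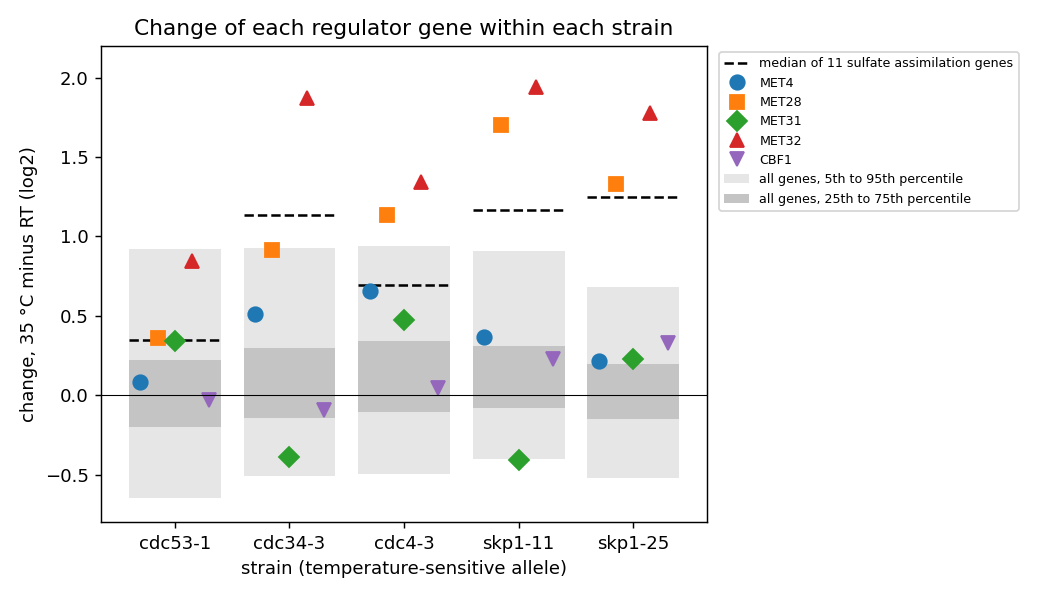
Change (35 °C minus RT, log2, vertical axis) of each regulator gene within each strain (horizontal axis). Grey bars span the 5th to 95th and 25th to 75th percentiles of all 5449 genes, and the dashed line is the median of 11 sulfate assimilation genes. MET32 lies above the 95th percentile in 4 strains and at 0.85 in cdc53-1, where that percentile is 0.92.

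Differences between strains were then compared, first as levels over both temperatures. The order of strains was not the same for each gene. MET28 was lowest in skp1-25 at both temperatures and highest in cdc53-1 at RT but in skp1-11 at 35 °C. MET31 was lowest in cdc53-1 at RT and in skp1-11 at 35 °C. MET4 was lowest in cdc53-1 at both temperatures. With 1 array per strain and temperature, the spread of a strain was taken from the residual of the fit. That residual reflects how the changes differ between strains and not a spread between repeat arrays. The step counts below are therefore descriptions. Neighbours in the order were further apart than the standard deviation of a difference between 2 arrays at 2 of 4 steps for MET28 at each temperature. This was so at 1 of 4 steps for MET31 and MET32 at each temperature, at 1 step for MET4 at 35 °C and 0 at RT, and at 0 steps for CBF1 at either. The strain term of the fit passed the test in none of the 5 genes, and in 8.75% of all genes. Its limma adjusted p was 0.0994 for MET28, 0.136 for MET31, 0.195 for MET32, 0.239 for MET4 and 0.657 for CBF1. The largest single difference was that of MET28 in skp1-25, which averaged 10.16 over both temperatures against 11.11 in the other 4 strains, a difference of -0.95 (limma adjusted p = 0.0784). Such contrasts of 1 strain against the other 4 called 5.80% of genes for cdc53-1, 0.330% for cdc34-3, 3.25% for cdc4-3, 4.66% for skp1-11 and 2.81% for skp1-25, and none of the 5 regulators in any of them.

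The size of the change was compared next. Cdc53, Cdc34 and Skp1 serve all SCF complexes, whereas the F-box protein altered in cdc4-3 is not the one that acts on Met4. MET32 changed by 1.35 in cdc4-3 against a mean of 1.61 in the other 4 strains, a difference of -0.27 with a 95% interval from -1.41 to 0.88. MET28 changed by 1.13 against 1.08, a difference of 0.06 with an interval from -1.21 to 1.32. With intervals this wide, the arrays do not separate a smaller change in cdc4-3 from an equal or a larger one. MET4 and MET31 had their largest changes in cdc4-3, at 0.66 against a mean of 0.29 and 0.48 against -0.06. For all 5 genes the limma adjusted p of this contrast was 1.00, and 0% of genes were called in it (197 at an unadjusted p under 0.05). That count is below the 0.05 share of the 5449 genes that chance alone gives.

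In cdc53-1, MET32 and MET28 had smaller changes than elsewhere. MET32 changed by 0.85 against a mean of 1.74, a difference of -0.89 with a 95% interval from -1.53 to -0.25 (limma adjusted p = 0.405). MET28 changed by 0.36 against 1.27, a difference of -0.91 with an interval from -1.66 to -0.15 (limma adjusted p = 0.458). These intervals are for a single gene, and neither passed after adjustment over all genes. With limma 0% of genes were called in this contrast (477 at an unadjusted p under 0.05). The 477 are above the 0.05 share that chance alone gives, and this count is a description. The end points differed for the 2 genes. At 35 °C the MET32 level of cdc53-1 was the lowest of the 5, while its MET28 level was in the middle and its RT level of MET28 was the highest.

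Between the skp1 alleles and the other 3 strains, MET28 changed by 1.52 against 0.80, a difference of 0.71 with a 95% interval from 0.04 to 1.38 (limma adjusted p = 0.996). CBF1 changed by 0.28 against -0.03, a difference of 0.30 with an interval from -0.02 to 0.63 (limma adjusted p = 0.996). No gene of the 5449 passed this contrast (0%, with 168 at an unadjusted p under 0.05). The 168 are below the 0.05 share that chance alone gives. The skp1 strains themselves did not give the same pattern, since MET31 changed by -0.41 in skp1-11 and by 0.23 in skp1-25. That difference has no replicate, and the allele and the strain that carries it cannot be told apart.

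Genes of sulfur metabolism, listed by pathway and not as known targets of Met4, were read beside the regulators. Of 38 genes listed for the sulfur pathway, all measured, 20 rose and 0 fell, against 13.0% of all genes called higher. Their median shift was 0.70, compared with 0.05 over all genes. Some genes of wider role were kept among the 38, such as the amino acid permease genes AGP1 and GNP1. The homoserine synthesis genes HOM2, HOM3 and HOM6 were kept too, and none of those named here passed. The list as written also held MCH5, a riboflavin transporter gene and not a sulfur gene, which rose by 1.57 ± 0.52 and with which the counts were 21 of 39. Without cdc34-3, cdc4-3 or skp1-11 the higher genes numbered 12, 13 and 11 of the 38, and without the strain block 4. Of the genes listed under sulfate assimilation, called sulfate genes below, 9 of 11 rose (against 13.0% of all genes), and their median was 0.95. This list also held MET2 (1.18 ± 0.74), whose enzyme acts on homoserine and not on sulfate. MET1 and MET8, which make the siroheme cofactor of sulfite reductase, rose by 1.33 ± 0.39 and 1.57 ± 0.61, the sulfate permease gene SUL2 by 1.42 ± 0.46, and MET17, which incorporates sulfide, by 0.42 ± 0.11. SUL1 and MET16, named because they alone of this list did not pass, had shifts of 1.61 ± 1.66 and 0.69 ± 0.58. SUL1 ranged from -0.39 in skp1-25 to 4.21 in skp1-11.

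Methionine and cysteine synthesis genes rose in 5 of 14 (against 13.0% of all genes), with a median of 0.21. They included the methionine synthase gene MET6 (0.56 ± 0.15), the cystathionine gamma-lyase gene CYS3 (0.47 ± 0.15), the folate enzyme gene MET13 (1.05 ± 0.60) and STR3 (1.99 ± 1.00), which encodes cystathionine beta-lyase. The MET13 call was lost without cdc53-1 (limma adjusted p = 0.0575) or cdc34-3 (limma adjusted p = 0.0604). Uptake and scavenging genes, MCH5 left out, rose in 6 of 13 (against 13.0% of all genes), with a median of 0.85, and in 7 of 14 with MCH5. Among these were the methyltransferase gene MHT1 (1.06 ± 0.36), the S-methylmethionine permease gene MMP1 (0.85 ± 0.29) and the methionine permease gene MUP1 (0.50 ± 0.27). The MUP1 call was lost without any 1 strain other than cdc53-1 (limma adjusted p from 0.0558 to 0.0871). Without skp1-11 the higher genes numbered 5 of 11 for sulfate and 2 of 13 for uptake. The uptake count was 2 without cdc34-3 and 3 without cdc4-3, and the methionine and cysteine count was 3 without cdc34-3. Without the strain block the counts were 2 for sulfate, 2 for methionine and cysteine and 0 for uptake, so that of the genes named here MET8, MET17, MET6, CYS3, MHT1, MMP1 and MUP1 lost their calls.

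**Figure D3:**
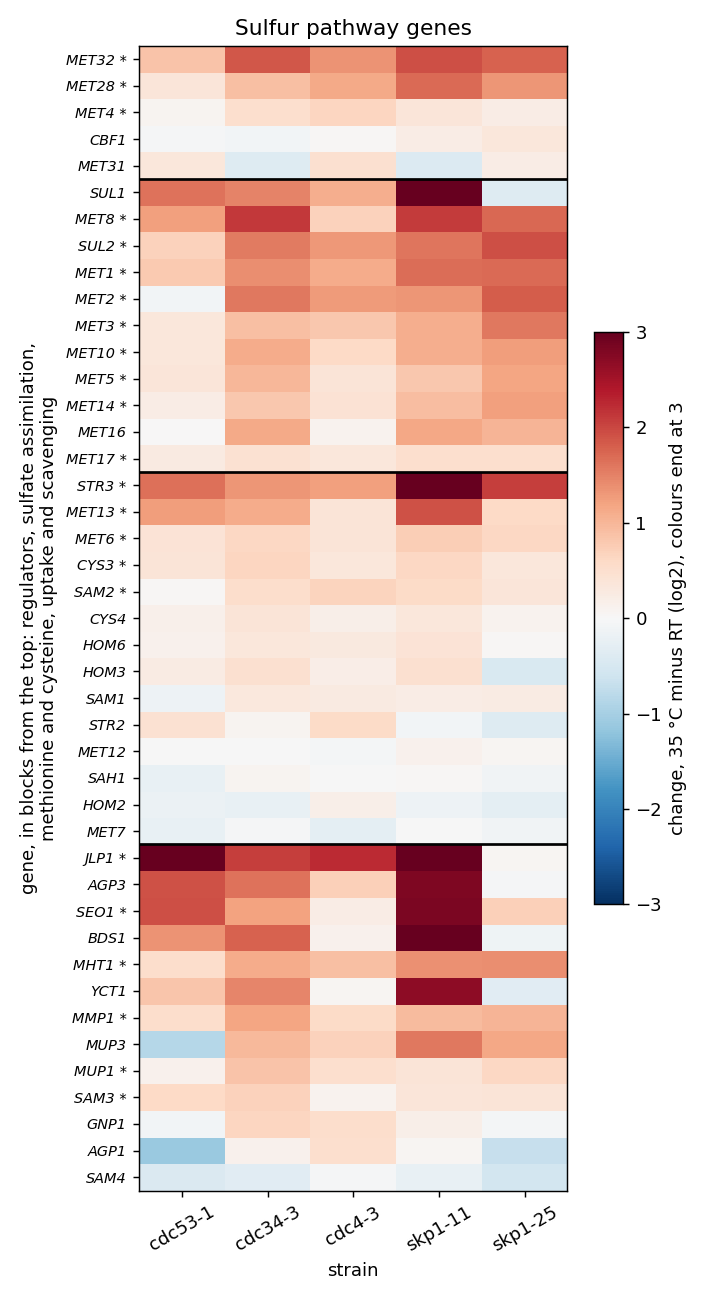
Change (35 °C minus RT, log2, colour) of 5 regulator genes and 38 sulfur pathway genes (MCH5 left out; rows, in 4 blocks, by mean change) in each strain (columns). An asterisk marks genes past the adjusted threshold of 0.05, and colours end at 3, which SUL1 (4.21) and STR3 (3.68) exceeded in skp1-11 and JLP1 in skp1-11 (3.67) and cdc53-1 (3.60). The median of the sulfate block ran from 0.35 in cdc53-1 to 1.25 in skp1-25. That of the uptake and scavenging block ran from 0.06 in skp1-25 to 1.38 in skp1-11.

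Of the 5 regulators, MET28 had the highest correlation with the sulfate genes. Over the 10 arrays its Pearson correlation with the 11 sulfate genes had a median of 0.93 and ran from 0.76 to 0.98, compared with a median of 0.10 over all genes. For MET32 the median was 0.78 (range 0.51 to 0.86), for CBF1 0.33, for MET4 0.30 and for MET31 -0.50. Over all genes the medians of these 4 were 0.16, 0.02, 0.20 and 0.05 in the same order. The points share strains and temperatures, so the correlations are descriptions. After the mean of each temperature was removed, the medians were 0.89 for MET28, 0.46 for MET32, 0.10 for CBF1, -0.32 for MET4 and -0.72 for MET31. Over all genes they were then 0.05, 0.09, -0.04, 0.15 and 0.05 in the same order. MET28 and MET31 correlated with each other at -0.46 over the 10 arrays and at -0.73 after temperature was removed, and MET28 and MET32 at 0.85 and 0.65.

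The arrays behind these values can be read from the mean deviation of the 11 sulfate genes from their own means. At RT it was lowest in skp1-25 (-1.19) and cdc4-3 (-0.96) and near -0.1 in cdc53-1 (-0.10) and cdc34-3 (-0.08), with skp1-11 at -0.29. At 35 °C it was highest in skp1-11 (1.21) and cdc34-3 (1.15), followed by cdc53-1 (0.43), skp1-25 (0.04) and cdc4-3 (-0.22). MET28 had the same 3 highest arrays at 35 °C, namely skp1-11, cdc34-3 and cdc53-1, and the same 2 lowest arrays at RT, skp1-25 and cdc4-3. MET32 departed from this order in cdc4-3, where it stood at 11.63 at 35 °C, close to cdc34-3, although the sulfate genes were lowest there of the 35 °C arrays. MET31 was highest at 35 °C in cdc4-3 and skp1-25, where the sulfate genes were lowest, and at that temperature lowest in skp1-11, where they were highest.

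**Figure D4:**
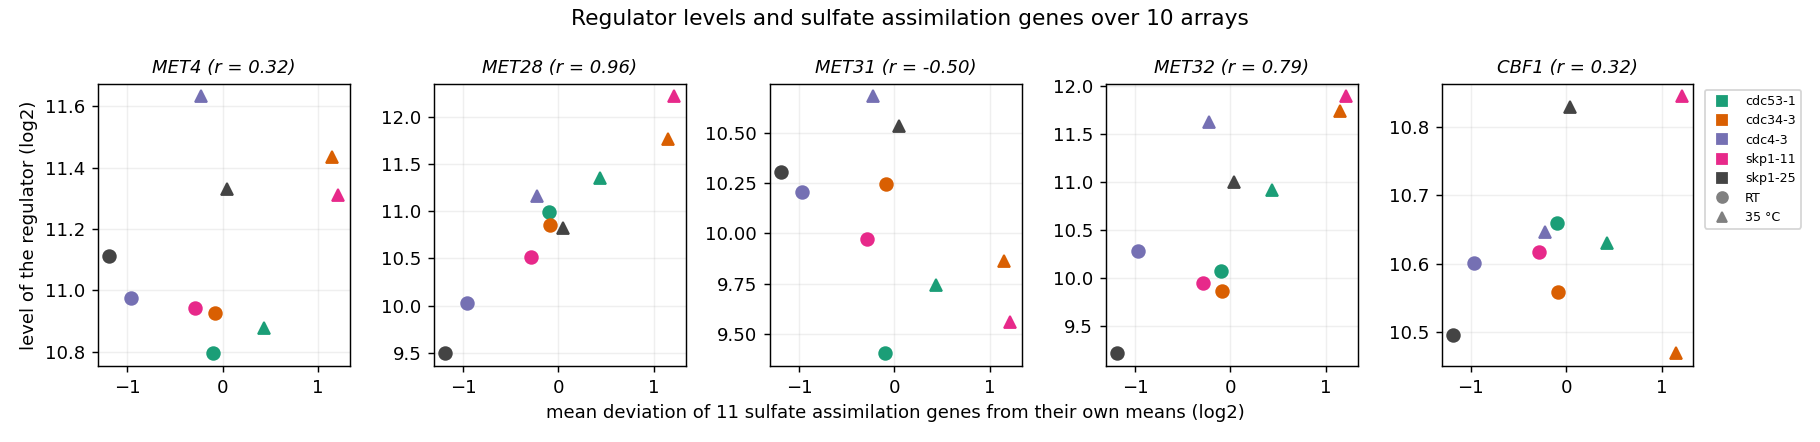
Level of each regulator gene (log2, vertical axis) against the mean deviation of 11 sulfate assimilation genes from their own means (log2, horizontal axis) in 10 arrays, coloured by strain, with circles for RT and triangles for 35 °C. The correlation is 0.96 for MET28, 0.79 for MET32, 0.32 for MET4 and for CBF1, and -0.50 for MET31.

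Genes with the most similar levels were sought among genes brighter than the median gene. They were picked as the highest correlations over the same 10 arrays, so their correlations and calls are descriptions. MET28 was most like SUL2 (r = 0.98), DER1 (0.98), which acts in degradation of misfolded proteins of the endoplasmic reticulum, and YHR112C (0.97), over 10 arrays. DER1 rose by 0.50 and YHR112C by 0.77, and both lost their calls without the strain block (limma adjusted p = 0.147 and 0.0956). DER1 also lost its call without cdc4-3, skp1-11 or skp1-25. The closest genes to MET32 were NIF3 (0.96), CTI6 (0.93) and the phosphoglucomutase gene PGM2 (0.93), which rose by 0.28, 0.35 and 0.86, and their correlations were 0.81, 0.76 and 0.63 once temperature means were removed. For MET4 they were KEX1 (0.95), the fatty acid desaturase gene OLE1 (0.95) and the 14-3-3 protein gene BMH1 (0.95), with shifts of 0.33, 0.33 and 0.27, of which that of BMH1 did not pass (limma adjusted p = 0.0831). The calls of NIF3, KEX1 and OLE1 were lost without any 1 strain other than cdc53-1, and that of CTI6 without cdc4-3. KEX1 and OLE1 also lost theirs without the strain block (limma adjusted p = 0.113 and 0.0676). Median centring ended the calls of NIF3 and OLE1 (limma adjusted p = 0.0562 and 0.0524), and quantile normalization that of NIF3 (limma adjusted p = 0.0567). MET31 was nearest to NAB2 (0.94), which encodes a nuclear poly(A)-binding protein, the homoserine kinase gene THR1 (0.89) and MDM38 (0.87). The 3 genes nearest to CBF1 had lower correlations, at 0.84 for PER33, 0.84 for BET5 and 0.83 for GCD2, which encodes a subunit of the initiation factor eIF2B.

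Stress genes moved with the same shift. Of 16 listed genes driven by the heat and general stress factors, 12 rose (against 13.0% of all genes), with a median of 0.73, and the small heat shock protein genes HSP12 and HSP26 rose by 1.30 ± 0.24 and 2.67 ± 0.64. MET32 correlated with these 16 genes at a median of 0.73 over the 10 arrays and MET28 at 0.56, and at 0.25 and 0.15 after temperature means were removed. Their medians over all genes were 0.16 and 0.10, and 0.09 and 0.05 after that removal. The median change of the stress genes was 1.06 in skp1-11, 0.73 in skp1-25, 0.27 in cdc34-3, 0.80 in cdc4-3 and 0.58 in cdc53-1, beside MET32 changes of 1.94, 1.78, 1.87, 1.35 and 0.85. The part of the stress response in the MET32 and MET28 changes was not tested.

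Genes of the ligase that acts on Met4 were also measured. MET30, the gene of its F-box protein, rose by 0.54 ± 0.28 (limma adjusted p = 0.0226), by 0.14 in cdc53-1, 0.45 in skp1-25, 0.52 in cdc4-3, 0.78 in cdc34-3 and 0.84 in skp1-11. The MET30 call was lost without the strain block (limma adjusted p = 0.0552), without cdc34-3 (0.0604), without cdc4-3 (0.0764) and without skp1-11 (0.0668). The list of 9 genes also held some that are not subunits of this ligase, among them UBI4 and CDC4. Of these 9 genes 3 rose, MET30, the polyubiquitin gene UBI4 (0.52 ± 0.10) and CDC4 (0.36 ± 0.12), and 0 fell, against 13.0% and 4.61% of all genes. The CDC4 call was lost without the strain block (limma adjusted p = 0.0530), without cdc4-3 (0.0595) and without skp1-11 (0.0518). Those that did not pass included the mutated genes CDC53 (-0.26 ± 0.30), CDC34 (0.29 ± 0.36) and SKP1 (0.13 ± 0.16), and the ring protein gene HRT1 (0.03 ± 0.12, negative after both rescalings at -0.04). As the alleles alter the proteins, transcript levels of the mutated genes are no check of the strain labels.

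Factors of the same DNA-binding families were read as a comparison for the regulators, although they were not matched to them by level. Mean RT levels were low for RTG1 (8.35), INO2 (8.38) and CIN5 (9.12), for example. The lower quartile filter gave no value to CIN5, YAP5, YAP6, INO2, RTG1 and RTG3. Among 12 genes of other leucine zipper factors, 2 rose and 1 fell, with a median shift of 0.07, and the 16.7% that rose is close to the 13.0% of all genes called higher (4.61% lower). ACA1 rose by 0.74 ± 0.40, YAP5 rose by 0.45 ± 0.22 and CIN5 fell by 0.48 ± 0.20, while YAP6 differed by 0.40 ± 0.33 without passing. All 3 calls were lost without the strain block, without cdc4-3 and without skp1-11, with limma adjusted p from 0.0621 to 0.126 over the settings that ended the ACA1 call, 0.0534 to 0.160 for YAP5 and 0.0545 to 0.0932 for CIN5. The ACA1 and YAP5 calls were also lost without cdc34-3, and that of YAP5 without skp1-25 and after quantile normalization. None of 7 other helix-loop-helix factor genes passed (median 0.04), and among them INO2 and TYE7 had shifts of 0.19 ± 0.08 and 0.19 ± 0.34, and RTG1 and RTG3 of -0.14 ± 0.29 and -0.11 ± 0.24. The INO2 shift was -0.01 after quantile normalization. Of 11 measured genes of other C2H2 zinc finger factors 1 rose and 1 fell (median 0.08), against 13.0% and 4.61% of all genes, namely NRG2, which rose by 0.45 ± 0.31 and SWI5, a mitotic factor gene, which fell by 0.84 ± 0.36, whereas MIG2 (-0.62 ± 0.52) and ADR1 (0.36 ± 0.33) did not pass. The NRG2 call was lost after both rescalings (limma adjusted p = 0.0650 and 0.0525), without the strain block (0.0669) and without any 1 strain other than skp1-25 (0.104 to 0.137). The SWI5 call was lost without the strain block (limma adjusted p = 0.113) and without cdc4-3 (0.0521). None of these 30 genes had a mean shift as large as that of MET28 or MET32.

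**Figure D5:**
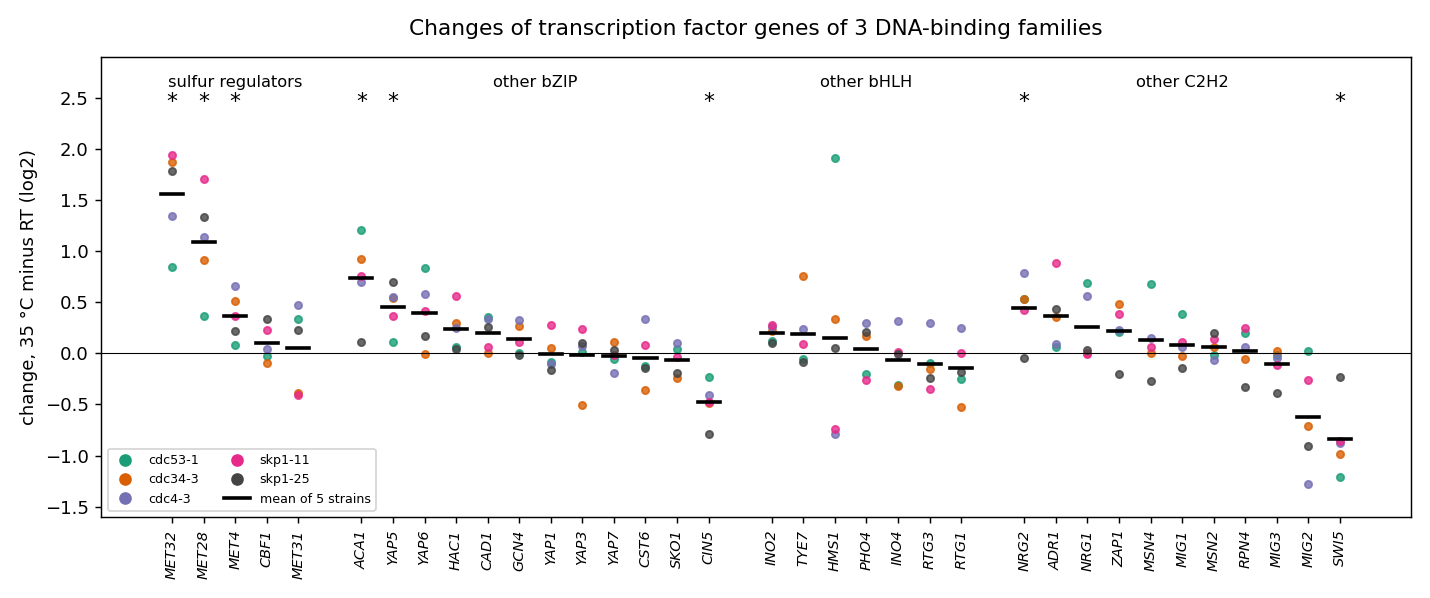
Change (35 °C minus RT, log2, vertical axis) of the 5 sulfur regulator genes and of 30 genes of other factors with leucine zipper (bZIP), helix-loop-helix (bHLH) or C2H2 zinc finger domains. Dots are strains, black bars are means of 5 strains, and asterisks mark genes past the adjusted threshold of 0.05. The means of MET32 (1.56) and MET28 (1.09) lie above the highest of the others, ACA1 at 0.74.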

How the data were processed

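The deposited table holds 1 value for each of 5716 probe sets on 10 Affymetrix arrays, hybridised with biotin-labelled cRNA from total RNA per the labels' protocols. The deposited values are taken as log2 from their range, since no label names the base. For probe summary, background correction, normalization and any filter, the method is not given in the sources used here, and the number of arrays limits the precision. In the platform annotation 5498 probe sets had 1 gene symbol, 0 several and 218 none. A RefSeq gene table of assembly R64 updated 12 symbols and gave locus tags. The brightest probe set was kept for 47 genes with several, which left 5449 genes, with no filter on low values.

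limma 3.58.1 in R 4.3.3 (lmFit, eBayes) was used with strain as a block, two-sided, with Benjamini-Hochberg adjustment over all genes at 0.05. Strain pairs the arrays by label. Deviations from temperature means correlated at 0.43 to 0.77 within strains and at most at 0.18 between them. The same fit gave the strain term and levels of each strain against the other 4, the latter chosen after the strain term was seen. Contrasts of the 5 changes set 1 strain, or the skp1 alleles, against the rest, on the assumption that a single change varies as the others do. Intervals are 95% moderated intervals. Alternatives were 2 rescalings, all probe sets, a filter at the lower quartile, no block, a variance trend and leaving out each strain.

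The regulators and gene lists were chosen with earlier results of these data known. Of the other zinc finger genes listed, 1 of 12 was not analysed here. Named genes were the 5 regulators, up to 4 per list by absolute moderated statistic (2 for stress) and the SCF genes. The 3 most correlated genes per regulator above the median level and genes specific to a mating type were also named. SUL1, MET16, MET2, AGP1, GNP1, HOM2, HOM3 and HOM6 were added after their values were seen. MCH5 met this rule but is not a sulfur gene, and the counts without it were added after its value was seen.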

Additional observations from a re-analysis of the deposited data

Results flagged for a closer look

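Levels at RT, levels at 35 °C and changes of the 5 regulators and 47 other named genes were searched for a strain far from the other 4, which gave 156 groups of 5 values. A gap test that chance passes in about 1 group in 20 marked 5 groups, and none of them belonged to a regulator of sulfur genes. CDC4 at 35 °C was 11.36 in cdc53-1, against 11.71 to 11.77 in the others. CYS3 at RT was 13.14 in cdc4-3, against 13.43 to 13.55. GCD2 at RT was 11.89 in skp1-11, against 11.73 to 11.76. SKP1 at 35 °C was 13.33 in skp1-25, the strain in which this gene is mutated, against 12.54 to 12.76. Its change in skp1-25 was 0.075, so its level there was similar at RT. SWI5 at RT was 10.75 in cdc53-1, against 11.37 to 11.56.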

How the results depend on the processing

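MET32 stayed higher and past the threshold in all 11 alternatives. MET28 did so except without the strain (replicate) block (1.09, adjusted p = 0.0788) and without cdc4-3 (1.08). Over the fits that left out 1 strain, MET32 ran from 1.46 to 1.74, MET28 from 0.93 to 1.27, MET4 from 0.29 to 0.44, MET31 from -0.058 to 0.16 and CBF1 from 0.04 to 0.14. MET4 missed the threshold at 0.29 after median centring, 0.30 after quantile normalization, 0.37 without the replicate block, and without any 1 strain other than cdc53-1. MET31 turned to -0.025 and -0.0087 under the rescalings, and its level lay under the lower quartile filter, which gave it no value. CIN5, YAP5, YAP6, INO2, RTG1 and RTG3 had no value under that filter either. Contrasts between strains and the strain term made no call for the 5 regulators under any alternative run. Values near 0 changed sign. They were cdc4-3 against the others in MET28 (-0.0066 after median centring, -0.030 after quantile normalization, and from -0.18 to 0.26 without 1 strain) and in CBF1 (from -0.13 to 0.0093 without 1 strain), and skp1-11 against the others in MET4 (-0.041 and -0.048).

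Genes called higher and lower went from 706 and 251 to 524 and 503 after median centring, 487 and 530 after quantile normalization, and 282 and 67 without the block. The share called higher among all calls was 73.8%, 51.0% and 47.9% under the 3 scalings, and the median gene moved from 0.05 to -0.02 and -0.03. Leaving out 1 strain gave 291 to 527 higher and 80 to 136 lower. Higher genes then numbered 5 to 10 of the sulfate list, 3 to 4 of methionine and cysteine genes, 3 to 5 of uptake genes (2 to 4 without MCH5) and 11 to 18 of the pathway without MCH5. Without the block these were 2, 2, 1 (0) and 4. Other named genes with small shifts changed sign. After median centring and quantile normalization HRT1 had -0.041 and -0.039, NAB2 -0.050 and -0.052, THR1 -0.063 and -0.081, and INO2 -0.0063 after the latter. Without 1 strain HRT1 ran from -0.0065 to 0.064, NAB2 from -0.017 to 0.066, THR1 from -0.029 to 0.041 and MDM38 from -0.062 to 0.037. The cause was not tested for any of these.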
